A study of Zea mays with 10 samples.

Results

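The maize genes lbl1 (LOC100037819) and rld2 (LOC100037826) belong to the machinery that tells the upper side of a leaf from the lower side. Array elements were taken as members if the platform annotation gave exactly 1 gene and that gene was lbl1 or rld2, which found 6 of the 19200 elements of the table, 4 for lbl1 and 2 for rld2. Element_12394, 1 of the 2 for rld2, had no value on any array, so rld2 was measured by element_18121 alone. The 5 elements with values passed the minimum of 4 values in each dye orientation.

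Leaves came from field-grown plants without added water or fertilizer, in 4 weedy plots sown with velvetleaf and 4 control plots weeded by hand. Leaf of 4 plants per plot was pooled, and a weedy and a control pool were hybridised together on each of 10 arrays. Weedy RNA carried the dye Cy5 on 5 arrays and control RNA carried it on the other 5, and a pool was used on 2 to 4 arrays. The genotype and age of the plants are not given in the labels, and each value is a ratio of whole pooled leaf material, in which fewer cells of a type and less RNA per cell cannot be told apart. Arrays are named here by the treatment in Cy5 and a number from 1 to 5, and weedy plots 2, 3, 4, 1 and 4 met control plots 1, 2, 3, 4 and 4 on the weedy Cy5 arrays. On the control Cy5 arrays, weedy plots 1, 1, 2, 3 and 3 met control plots 2, 3, 4, 1 and 4.

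The lbl1 product is the maize relative of SGS3, a protein that helps turn a cleaved transcript into trans-acting small RNAs, which hold certain auxin response factor transcripts out of the upper leaf side. The gene is also listed as rgd1, and loss of its function in maize gives narrow or radial leaves without a normal upper side. The rolled leaf genes rld1 and rld2 encode transcription factors of the class III homeodomain leucine zipper family, which promote upper side identity and whose transcripts are cut by the small RNA miR166 on the lower side.

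The deposited values were log ratios and were treated as log2. They came with no statement of which dye was on top, so all signs rest on reading them as Cy5 over Cy3. On that reading a turned ratio, the deposited ratio with its sign changed on the control Cy5 arrays, is positive where weedy leaf had more transcript than control leaf, and each sign is the opposite if Cy3 was on top. The average deposited ratio, without turning, is also given for each element, since it would be the weedy over control difference if the submitters had turned the arrays themselves. Every ratio was centred on its array's median.

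Neither lbl1 nor rld2 differed past the threshold between weedy and control leaves. Averaged over its 4 elements, lbl1 had a turned log2 ratio of -0.06 (SE 0.06, 95% interval -0.20 to 0.07, limma adjusted p = 0.733 over 540 genes), negative on 7 of 10 arrays. That value was -0.11 without weedy plot 3, -0.10 without control plot 4, -0.02 without control plot 3, -0.03 without weedy Cy5 array 3 and -0.04 without weedy plot 4. The SE of 0.06 is that of the average and does not measure how far the 4 elements differ on an array. Single lbl1 elements had SEs of 0.10 to 0.15. On control Cy5 array 5 the lbl1 average lacks element_5435. For rld2 the turned log2 ratio was -0.04 (SE 0.07, 95% interval -0.20 to 0.12, limma adjusted p = 0.893), negative on 6 of 8 arrays. At an adjusted p under 0.05, 0 of the 5 elements were called, where the share called over all 16201 elements tested was 0.0123%. At an unadjusted p under 0.05 the count was also 0 of 5, where the share over all elements was 12.1%. Over genes, 0% of the 540 tested passed after adjustment and 11.5% had an unadjusted p under 0.05. For the average deposited ratio the count was 0 of 5 by either rule, where 0% of all elements passed after adjustment and 9.49% did so unadjusted.

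**Figure D1:**
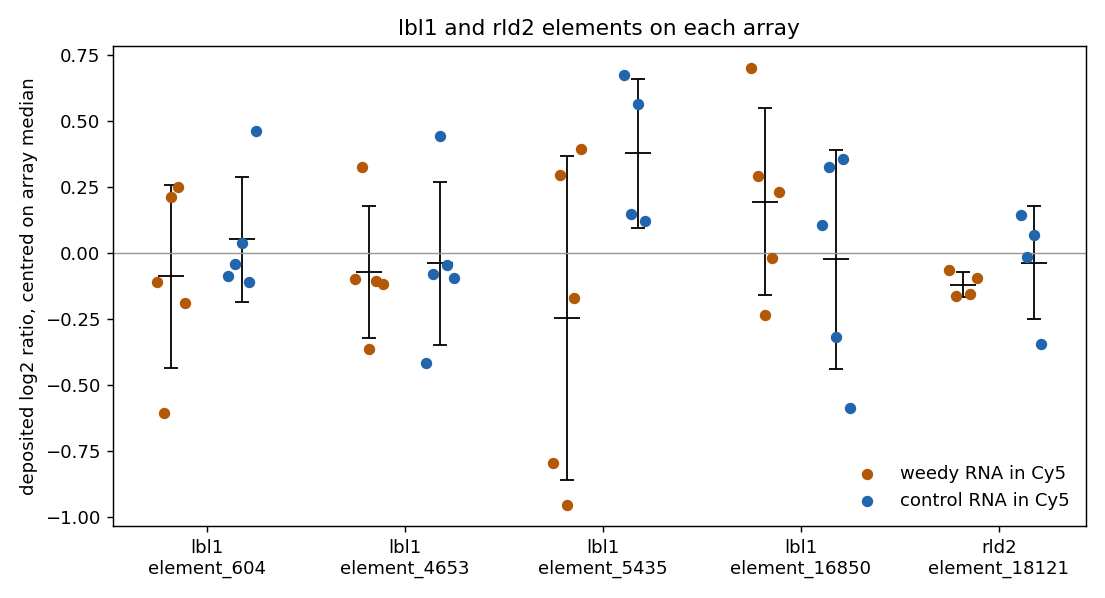
Centred log2 ratio of each lbl1 and rld2 element (vertical axis) on each array, with weedy RNA in Cy5 at the left of each pair and control RNA in Cy5 at the right; dots are arrays, bars are the mean and SD. The 2 orientations overlap for all 5 elements, and element_5435 has the widest spread, with -0.95 as its lowest and 0.67 as its highest ratio.

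Of the lbl1 elements, element_5435 had the largest fitted difference. Its centred ratios were -0.80, 0.29, -0.95, -0.17 and 0.39 on weedy Cy5 arrays 1 to 5, and 0.67, 0.15, 0.56 and 0.12 on control Cy5 arrays 1 to 4, with no value on the fifth. All 4 control Cy5 values were above 0, the weedy Cy5 values lay on both sides of it, and the orientations overlapped. The means were -0.25 ± 0.61 (SD, n = 5) with weedy RNA in Cy5 and 0.38 ± 0.28 (SD, n = 4) with control RNA in Cy5. The turned log2 ratio was -0.31 (SE 0.15, 95% interval -0.64 to 0.01, limma adjusted p = 0.424), negative on 7 of 9 arrays, and the average deposited ratio was 0.06 (SE 0.14). Its array-to-array residual SD, 0.491, was above that of 87.9% of the elements tested. The control Cy5 array without a value for it is the one with the fewest measured elements, 9965, where the others had 13747 to 17383.

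Element_604 showed no such lean. Its ratios were -0.11, -0.61, 0.21, 0.25 and -0.19 on weedy Cy5 arrays 1 to 5, and -0.09, -0.04, 0.04, -0.11 and 0.46 on control Cy5 arrays 1 to 5. Within each orientation values lay on both sides of 0, and turned ratios were negative on 5 of 10 arrays. The turned log2 ratio was -0.07 (SE 0.10, 95% interval -0.29 to 0.15, limma adjusted p = 0.807), and the average deposited ratio was -0.02 (SE 0.09). The ratio of 0.46 on control Cy5 array 5 stood apart from the other 4 of its orientation, which ran between -0.11 and 0.04.

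Element_4653 lay closest to 0. It had -0.10, 0.33, -0.36, -0.11 and -0.12 on weedy Cy5 arrays 1 to 5, and -0.42, -0.08, 0.44, -0.04 and -0.10 on control Cy5 arrays 1 to 5. The orientations overlapped over nearly their whole range, and 8 of 10 deposited ratios were below 0. Its turned log2 ratio was -0.02 (SE 0.10, 95% interval -0.23 to 0.19, limma adjusted p = 0.959) and its average deposited ratio -0.05 (SE 0.09).

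Element_16850 was the lbl1 element with a positive fitted value. Its ratios were 0.70, 0.29, -0.24, -0.02 and 0.23 on weedy Cy5 arrays 1 to 5, and 0.11, 0.33, -0.32, 0.35 and -0.59 on control Cy5 arrays 1 to 5. The high value on weedy Cy5 array 1 and the low one on control Cy5 array 5 lay at the ends of overlapping groups. The turned log2 ratio was 0.11 (SE 0.12, 95% interval -0.15 to 0.36, limma adjusted p = 0.735), positive on 5 of 10 arrays, and the average deposited ratio was 0.09 (SE 0.11).

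The 4 lbl1 elements differed in how they varied across arrays. Before local medians were removed, 1 of their 6 pairs had a correlation above 0, with a median of -0.26, a lowest value of -0.69 and a highest of 0.36. Over all genes with several elements, 61.0% of 3953 pairs were above 0 and the median was 0.13. The lbl1 median was -0.13 with 2 of 6 pairs above 0 after the median of each 400 consecutive elements of the table was removed, and -0.03 with 3 of 6 above 0 in windows of 20 elements. Over all genes the median was 0.15 and 0.13 after these removals. Element_604 and element_16850 had opposite signs on all 10 arrays they share (r = -0.69). With the wider windows that pair had the same sign on 7 of 10 arrays (r = -0.13), and with the narrower ones on 3 (r = 0.07). Element_604 and element_5435 had r = -0.39 before, and -0.30 and -0.78 after. Element_4653 and element_5435 had the highest correlation, 0.36 over 9 arrays, and it was 0.57 and 0.54 after these removals. The points of each correlation are arrays that share pools, so it is a description of these arrays.

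**Figure D2:**
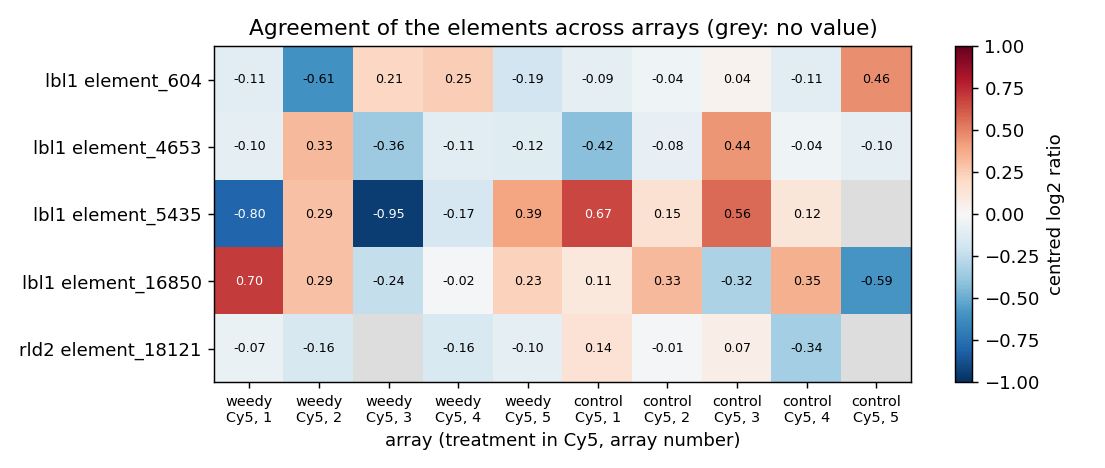
Centred log2 ratio (colour and printed value) of the 5 measured elements (rows) on the 10 arrays (columns, weedy RNA in Cy5 at the left), with missing values in grey. Element_604 and element_16850 have opposite signs on all 10 arrays, and element_5435 has the lowest ratio shown, at -0.95.

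Part of the variation of element_604 and element_4653 was shared with their neighbours in the table. The correlation with the median of the 20 nearest elements was 0.72 for element_604 and 0.75 for element_4653 over 10 arrays. It was 0.08 for element_5435 and element_16850 and 0.12 for element_18121. The neighbour median of element_604 averaged -0.14 on the turned scale. With medians in windows of 20 elements removed, the turned log2 ratio of element_604 was 0.04.

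Within an array the lbl1 elements also lay far apart. The span between the lowest and the highest of them was 1.50 on weedy Cy5 array 1 and 1.16 on weedy Cy5 array 3. The smallest span was 0.407, on control Cy5 array 2. The gene average of lbl1 pooled values of both signs on every array.

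For rld2, the values of element_18121 were among the least variable of the table. Its ratios were -0.07, -0.16, -0.16 and -0.10 on weedy Cy5 arrays 1, 2, 4 and 5, and 0.14, -0.01, 0.07 and -0.34 on control Cy5 arrays 1 to 4. All 4 weedy Cy5 values were below 0 and within a narrow range, and the control Cy5 values lay on both sides of them. The means were -0.12 ± 0.05 (SD, n = 4) with weedy RNA in Cy5 and -0.04 ± 0.21 (SD, n = 4) with control RNA in Cy5. The turned log2 ratio was -0.04 (SE 0.09, 95% interval -0.24 to 0.16, limma adjusted p = 0.880 over all elements), and the average deposited ratio was -0.08 (SE 0.09, 95% interval -0.26 to 0.11). Its residual SD, 0.149, was above that of 4.01% of the elements tested. That rank leaves out control Cy5 array 5, whose ratios had the largest SD of all arrays, 0.594, and which entered for other elements. The arrays without a value, weedy Cy5 array 3 and control Cy5 array 5, were those with the fewest measured elements, so weedy plot 4 and control plot 3 each entered on 1 array only.

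A further 2 elements were annotated with both rld1 and rld2 and were not counted as members, because their signal cannot be assigned to either gene. Element_7763 had -0.41, -0.02, -0.18, -0.47 and -0.16 on weedy Cy5 arrays 1 to 5, and 0.37, -0.34, 0.41, 0.30 and 0.14 on control Cy5 arrays 1 to 5. All weedy Cy5 values were below 0 and 4 of 5 control Cy5 values above it, and control Cy5 array 2 brought the groups to overlap. The turned log2 ratio was -0.21 (SE 0.09, 95% interval -0.41 to -0.01), negative on 9 of 10 arrays, and did not pass after adjustment (limma adjusted p = 0.398). Its average deposited ratio was -0.04 (SE 0.09). The second shared element, element_5298, had a turned ratio of -0.01 (SE 0.08, limma adjusted p = 0.963) and an average deposited ratio of -0.09 (SE 0.08). The correlation of the shared pair was 0.20 over 9 arrays. With element_18121 of rld2, element_5298 had r = -0.50 and element_7763 had r = 0.20, over 8 arrays each. Of the 7 elements of these genes with values, 0 had orientations that did not overlap, where the share over all tested elements was 4.93%.

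By pool, lbl1 elements differed in which plots were high or low. Element_5435 had a mean turned ratio of -0.68 on the 2 arrays with weedy plot 2 and 0.09 on the 2 measured arrays with weedy plot 3. Element_16850 ran the other way for weedy plot 2, at 0.51, and stood at -0.15 on the 3 arrays with weedy plot 1. For element_4653 the arrays with control plot 2 had a mean of 0.37, and those with weedy plot 2 had a mean of -0.27. Element_604 was lowest with weedy plot 3, at -0.32 on 3 arrays, and highest with weedy plot 1 and control plot 3, at 0.13 for each.

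**Figure D3:**
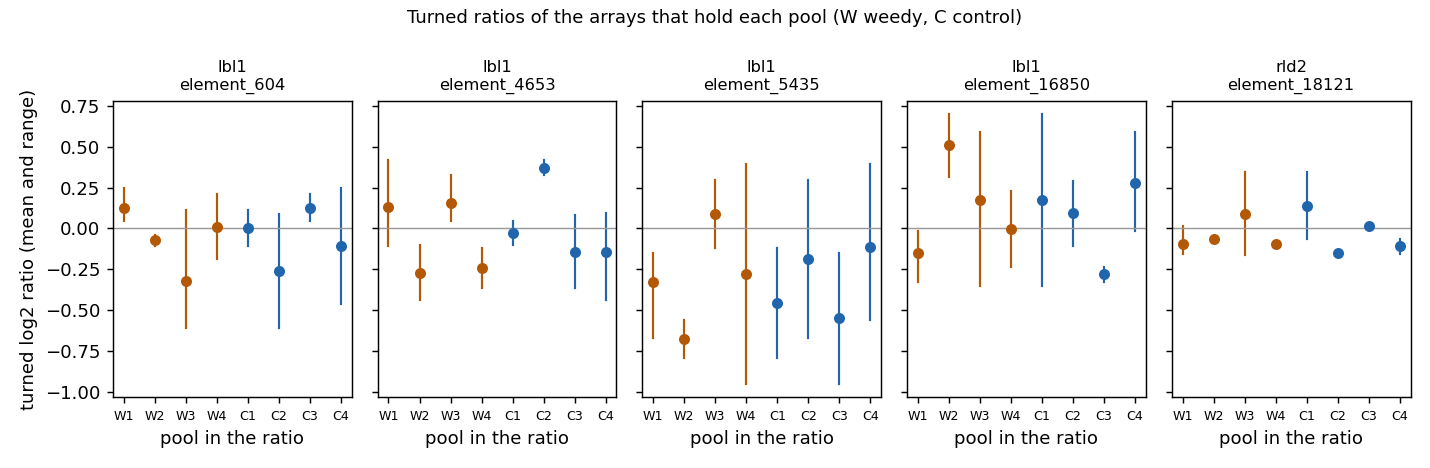
Turned log2 ratio (vertical axis; weedy over control if read as Cy5 over Cy3) for the arrays that hold each weedy (W1 to W4) or control pool (C1 to C4), with the mean as a dot and the lowest and highest array as a line. The pools with extreme values differ between elements: weedy plot 2 is lowest for element_5435, at -0.68, and highest for element_16850, at 0.51.

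For rld2, the pool means were within a narrower band. They were -0.09, -0.07, 0.09 and -0.10 for the arrays with weedy plots 1 to 4, and 0.14, -0.15, 0.01 and -0.11 for those with control plots 1 to 4. The high values of weedy plot 3 and control plot 1 came from the single array that holds both, at a turned ratio of 0.34. The remaining 7 turned ratios ran between -0.16 and 0.01.

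The lbl1 and rld2 ratios were set against each other on the 8 arrays with both. The difference, lbl1 minus rld2 on the turned scale, was positive on 4 arrays and negative on 4, with an SD of 0.21. It averaged 0.14 with weedy RNA in Cy5 and -0.14 with control RNA in Cy5. With 1 least-squares value per plot, the difference was 0.0062 (two-sided exact permutation test over 70 splits of the 8 plots, p = 0.971), where the smallest p that the design allows is 0.0286. Read as already turned before deposit, the difference was 0.13 (two-sided exact permutation test, p = 0.229). On either reading this fit had as many terms as arrays, so each plot value carries the error of single arrays. Plots also share arrays, so their values are not independent and each p is only a description. No difference in response between lbl1 and rld2 was detectable with this number of arrays.

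Other genes were taken by symbol from a list of leaf polarity and small RNA pathways, called polarity genes here. Among elements annotated with exactly 1 gene, 7 besides lbl1 and rld2 were found. They were rld1, the homeodomain leucine zipper gene phb1, the MYB gene rs2, which keeps meristem genes off in maize leaves, the YABBY genes yab9, yab10 and yab14, and the auxin response factor arf1. At an adjusted p under 0.05, 0 of the 7 passed in either direction, and 1, phb1, had an unadjusted p under 0.05, where the share was 11.5% over all genes. For the average deposited ratio 0 of the 7 passed after adjustment, and 3, yab9, rs2 and arf1, had an unadjusted p under 0.05, where the shares over all genes were 0% and 9.44%. All 7 had positive turned ratios, between 0.02 and 0.27 with a median of 0.14, where 306 of all 540 genes were positive with a median of 0.02. The median of the 7 is the value of arf1, which the list took with the auxin response factor family, without a polarity role shown for it. Both lbl1 and rld2 stood on the negative side. The sign of the 7 depends on the direction of the deposited ratios: their average deposited ratios had a median of -0.13, with 2 of 7 positive. The median turned ratio was 0.09 without weedy Cy5 array 4 and 0.09 without weedy plot 3.

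The class III family gene phb1 (LOC542542) averaged 0.05 ± 0.19 over its 3 elements with weedy RNA in Cy5 and -0.30 ± 0.27 with control RNA in Cy5 (SD, n = 5 each), a turned log2 ratio of 0.18 (SE 0.08, limma adjusted p = 0.431). The 3 phb1 elements differed, at turned log2 ratios of 0.20, -0.01 and 0.31. For rld1 (LOC542515), named together with rld2 on the shared elements, the turned log2 ratio was 0.02 (SE 0.09, limma adjusted p = 0.955). Its 2 elements with values stood on either side of 0, at 0.07 and -0.03. Among the YABBY genes, yab14 (LOC542128) stood at 0.27 (SE 0.15), yab9 (LOC542130) at 0.15 (SE 0.10) and yab10 (LOC542744) at 0.06 (SE 0.07). Some YABBY genes are expressed on the upper side of young maize leaves. The auxin response factor arf1 (LOC732812) was at 0.14 (SE 0.08) and rs2 (LOC542488) at 0.04 (SE 0.15).

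**Figure D4:**
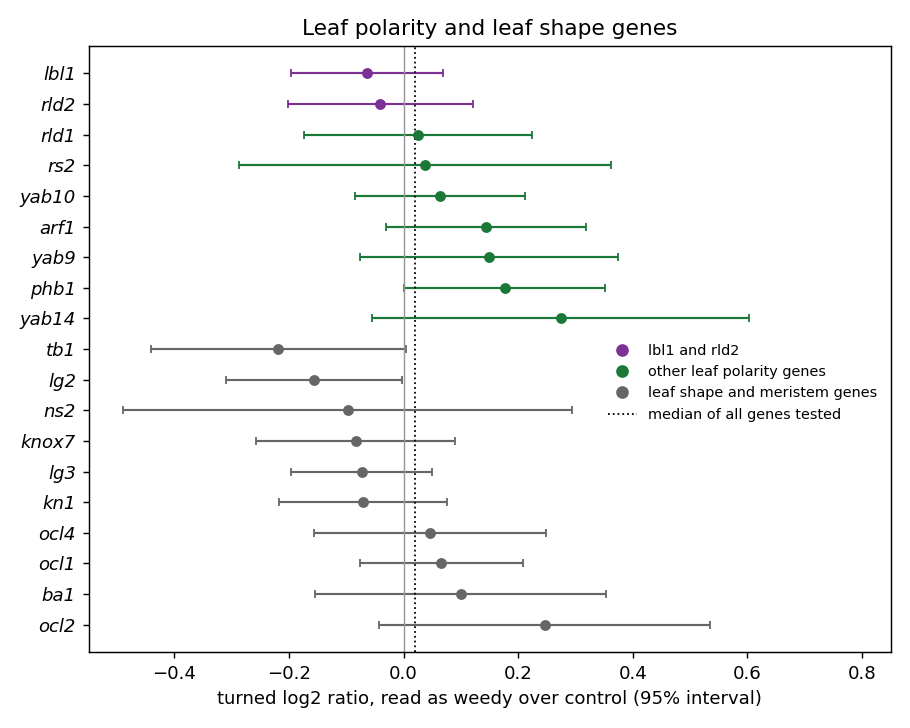
Turned log2 ratio with its 95% interval (horizontal axis) for listed genes. They are lbl1 and rld2, 7 other genes of the polarity list and 10 leaf shape and meristem genes. The dotted line is at the median of all 540 genes. The 7 other polarity genes lie above 0 and lbl1 and rld2 below it, and no gene passes after adjustment.

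The list of leaf shape, ligule and shoot meristem genes gave 10 among elements annotated with exactly 1 gene. Of these, 0 passed after adjustment and 1 had an unadjusted p under 0.05. The shares over all 540 genes were 0% and 11.5%. Turned ratios were positive for 4 of the 10, with a median of -0.07, where 306 of all 540 genes were positive. For the average deposited ratio the counts were 0 after adjustment, 1 unadjusted and 5 positive, with a median of -0.01. Over all 540 genes, 0% passed after adjustment, 9.44% did so unadjusted and 253 were positive. On the turned scale the gene of smallest p was lg2 (LOC541670), a bZIP factor that sets the boundary of blade and sheath, at a turned log2 ratio of -0.16 (SE 0.07, limma adjusted p = 0.431), negative on 7 of 8 arrays. On the deposited scale it was ba1, a gene of lateral branch initiation named here after its values were seen, at an average ratio of -0.35 (SE 0.11, limma adjusted p = 0.285), where lg2 stood at 0.06 (SE 0.06). The branching regulator tb1 stood at -0.22 (SE 0.10) and ocl2 (LOC542668), a homeodomain gene of the outer cell layer, at 0.25 (SE 0.13), and neither passed. Without weedy plot 1 ocl2 stood at 0.02 and without weedy plot 3 at 0.42, and tb1 ranged from -0.34 without weedy plot 1 to -0.13 without control plot 4.

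The named elements most like each member in their centred ratios were found among up to 1449 elements of other genes. Element_604 was most like element_1057 of dmt101 (LOC542082), a DNA methyltransferase gene, at r = 0.86 over 10 arrays, followed by elements of CAT3 (LOC542370), a catalase, at 0.83 over 8 arrays and AGP2 (LOC542737) at 0.82 over 9. Element_4653 was most like element_4654 of the same gene dmt101, at r = 0.89, and that element is its immediate neighbour in the table, at a distance of 1. Next came elements of Pti1d (LOC100037784) at 0.84 over 10 arrays and cesa6 (LOC541804), a cellulose synthase, at 0.81 over 9. Element_5435 was most like element_8626 of eif3 (LOC542747), a translation initiation factor, at r = 0.94 over 9 arrays, followed by elements of crt2 (LOC542732) at 0.94 and ZmMRP2 (LOC542680) at 0.90. Element_16850 was most like element_12917 of mtl2 (LOC542475), at r = 0.90 over 10 arrays, with the expansin EXPB9 (LOC542106) at 0.88 and the stress factor DREB2A (LOC732788) at 0.86 after it. Element_18121 of rld2 was most like element_18697 of SE1B (LOC541879), at r = 0.90 over 8 arrays, then elements of rcalm (LOC541661) at 0.87 and LOC100125656 at 0.86. No gene other than dmt101 was among the nearest 3 of more than 1 member element. Element_604 and element_4653, which matched dmt101, had r = -0.38 with each other. Both also followed their neighbours in the table, at r = 0.72 and 0.75 with the neighbour median. The likeness correlations were taken without removal of local medians and rest on arrays that share pools and dye orientation. They were also picked as the highest 3 of up to 1449 over 8 to 10 arrays. Such picking alone yields high values, and how much of their size it accounts for was not tested.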

How the data were processed

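Per the labels' protocols, total RNA was labelled with an Alexa Fluor cDNA kit, and the 2 dyes are recorded as Cy5 and Cy3. The authors deposited 1 log ratio per element and array, and these deposited values were treated as log2. The sources used here do not name the log base, numerator dye, normalization, scanner or filters. Base 2 was assumed: the largest value, 7.64 in size, is beyond a scanner's range in base 10, and natural logs would only rescale all sizes. No signal intensities were used, so whether the elements stood above background was not tested. The number of arrays limits precision.

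Array medians were subtracted. Generalised least squares gave each element a treatment coefficient (plus or minus 1 by orientation) and a dye intercept, with plots as random effects (ratio of plot to array variance 0.0347, by restricted likelihood on complete elements). Moderation used eBayes of limma 3.58.1 under R 4.3.3. Benjamini-Hochberg adjustment at 0.05 ran over 16201 elements or 540 genes. The fit was tested on simulated data. Genes were named through the platform annotation, which gave 1 gene for 1800 elements. Synonyms came from RefSeq (Zm-B73-REFERENCE-NAM-5.0), which held both members. MNB1b, on 230 elements, was left out of gene averages.

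Named genes were all members, all listed polarity genes, the 3 listed shape genes of smallest p for the turned ratio, and ba1. These shape genes were chosen after their values were seen. The 3 most similar elements per member were also named, by Pearson correlation over at least 8 arrays. Members and lists were chosen with earlier results of these data known. Alternatives covered centring, scaling, plots, dye, filters, weights, position, direction, and removal of each array and plot. The listed polarity genes and the 3 shape genes were run through these alternatives too, as a choice made later. The other listed shape genes, ba1 among them, entered the alternatives only through the list median.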

Additional observations from a re-analysis of the deposited data

Results flagged for a closer look

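In 18 checks for an array far from the others of its dye orientation, 3 were found, where chance alone flags about 1 in 20. The ratio of element_604 of lbl1 on control Cy5 array 5 was 0.46, against -0.11 to 0.04 on the other 4 arrays of that orientation. The same array had no value for 9235 elements, against 1826 to 2967 on the others. Weedy Cy5 array 3 had no value for 5453 elements, against 1817 to 1972. Without control Cy5 array 5 the turned log2 ratio of element_604 was -0.02 (limma adjusted p = 0.948).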

How the results depend on the processing

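In 221 alternative values of the 5 elements and 2 genes, 0 passed after adjustment (limma, lowest adjusted p = 0.295), 203 kept their sign and 18 did not. The 31 values of rld2 repeat those of element_18121, its only measured element. Values from 1 value per plot are counted too but had no adjusted p, so they could not pass. Read as already turned, element_5435 was 0.065, lbl1 0.0075, phb1 -0.13, yab9 -0.33, yab10 -0.077, yab14 -0.22, arf1 -0.18, lg2 0.066 and the polarity list median -0.13. With medians of 20 elements removed (chosen after seeing the data), element_604 was 0.040, element_18121 and rld2 0.065 and element_5298 0.045. With the sign of the 2 control plot 4 Cy5 arrays turned, element_604 was 0.023, element_4653 0.053, element_16850 -0.064, rs2 -0.029 and arf1 -0.073. With array weights rs2 was -0.027, and with plot numbers as a replicate block it was -0.0059. The block changed no call. Fitted plot values of same-numbered weedy and control plots correlated at -0.51, 0.12, -0.61 and 0.21. Plots that share arrays share array error, so these correlations cannot decide whether the numbers pair the pools. The difference lbl1 minus rld2 was -0.13 with element_604 and -0.087 with element_5435 for lbl1. With 1 array or 1 plot removed, the range was -0.15 to 0.026 for element_604 (above 0 without weedy plot 3), -0.11 to 0.059 for element_4653, -0.0058 to 0.21 for element_16850 (below 0 without control plot 4), -0.10 to 0.015 for element_18121 and rld2 (above 0 without weedy plot 1), -0.060 to 0.042 for element_5298, -0.015 to 0.074 for rld1 and -0.15 to 0.22 for rs2. Element_5435 stayed between -0.46 and -0.21, the lbl1 average between -0.11 and -0.023, ocl2 between 0.020 and 0.42 and tb1 between -0.34 and -0.13. The polarity median lay between 0.087 and 0.18, and was 0.068 with the 2 arrays turned; the shape median was -0.0077 with medians of 400 elements removed. Read as already turned, element_7763 was -0.036 and lbl1 minus rld2 0.13. Of the 7 polarity genes, 5 to 7 were positive with 1 array or plot removed, 5 with the 2 arrays turned and 2 on the other reading. With 1 value per plot the exact permutation test cannot reach an adjusted p under 0.05, so it says nothing on stability. The cause was not tested. With all 10 arrays required, element_5435, element_18121 and rld2 gave no value.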
